A study of Mus musculus with 36 samples.

Results

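The comparison described here set 3 RNA-seq libraries labelled SE with IFNγ (replicates 4, 5 and 6) against the 3 PBS libraries that carry the same replicate numbers in the same count table. These 6 libraries were taken by their labels from the 36 libraries of the series, 18 of which are in the IFNγ table. All were made from RAW264.7, a mouse macrophage line derived from an Abelson virus tumour and so a single line rather than primary cells. The SE cultures are labelled as given 65–79*SE, a 15-residue peptide of the HLA-DRβ chain that carries the rheumatoid arthritis shared epitope, at 100 µg/ml together with 5 ng/ml IFNγ for 72 h, with fresh medium at 48 h. The PBS libraries are labelled PBS for treatment, while their titles also name IFNγ, so the labels do not settle whether these cultures received the cytokine. The libraries labelled PE, replicates 4 to 6, received the protective-epitope peptide 65–79*PE with IFNγ by their labels and serve as comparator. The replicates are described as biological, from more than 1 experiment, and neither labels nor methods say that replicates 4 to 6 came from separate cultures, so the p-values measure the spread between these libraries, part of which may be technical.

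IFNγ binds its receptor on macrophages and signals through JAK kinases to gamma-activated sequences in DNA. Among its best-known targets are the factors Irf1 and Ciita, the guanylate-binding proteins and immunity-related GTPases that attack intracellular pathogens, and the MHC class II genes. Inflammatory mediators such as Nos2, Ptgs2, Tnf and the chemokines are driven largely through NF-κB, and IFNγ amplifies them in the state called M1.

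The 6 libraries held 20.7 to 63.2 M counts. In them 3 counts, the limit that a count of 0 allows, corresponded to 0.0475 to 0.145 counts-per-million (CPM) of the whole total. Small noncoding RNAs took 17.7 to 23.2% of the counts of these libraries, against 0.0612 to 0.0959% in the SE and PBS libraries of replicates 1 to 3, and the values below come from replicates 4 to 6 unless stated. PBS replicate 6 stood apart from the other 5 libraries on the first principal component, which held 51.4% of the variance. It lay at -28.8, PBS replicates 4 and 5 at -2.89 and -5.87, and the SE libraries at 10.1 to 15.8. Its median absolute log2 difference per gene was 0.131 from PBS replicate 4 and 0.138 from PBS replicate 5. The value was 0.0856 between PBS replicates 4 and 5, and 0.122 to 0.143 between SE libraries. Calls that were lost without PBS replicate 6 are named beside their values. In bulk RNA, fewer cells of a type and less RNA per cell cannot be told apart.

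Macrophage markers were high in all 6 libraries. The summed level of 12 macrophage markers was 4416 to 5738 CPM in PBS and 6922 to 7766 CPM in SE, with 11 of the 12 tested and 1, Lyz2, called higher. Lyz2 alone took 1646 to 2744 CPM in PBS and 3919 to 4530 CPM in SE. The median log2 fold change of the list was 0.11, with 8 members above and 3 below 0. The summed levels of 8 neutrophil, 8 fibroblast, 6 epithelial and 6 mast cell markers were each below 1.5 CPM in every library, and the defining markers Epcam, Elane, Col3a1 and Kit had no count in these 6 libraries. The endothelial list summed to 24.2 to 36.1 CPM, mostly Vwf at 22.7 to 33.7 CPM, with 2 members tested, 0 called and a median log2 fold change of 0.47. The T cell list reached 57.3 to 69.9 CPM and the B cell list 29.3 to 45.4 CPM, and no member of either was called, while Cd3e, Trac and Ms4a1 had no count.

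No IFNγ response was present in the libraries labelled SE. Of 33 IFNγ response genes, 32 were tested and 0 were called higher or lower against PBS with edgeR at adjusted p under 0.05 and a fold change over 1.5, with 7 at an unadjusted p under 0.05 and all 7 of these below PBS. Their median log2 fold change was -0.05, and 5 of them had 3 counts or fewer in each of the 6 libraries. With the 6 libraries alone 20 of these genes passed the filter, and the other 12 passed only through their level in PE. Over the 20 the median was -0.13, with 4 above and 16 below 0. The summed level of the list was 807, 827 and 1004 CPM in PBS, 691, 696 and 619 CPM in SE, and 6631, 6119 and 6066 CPM in PE. The SE libraries thus lay below every PBS library, while PE lay far above both. Of the 20 genes that passed without PE, 20 were called higher in PE than in PBS (10.8% of all genes were called there, 6.16% higher and 4.66% lower) and 20 lower in SE than in PE (13.8% of all genes were called there). The 12 others had to be higher in PE to be tested. The SE labels and this response therefore go against each other, and every SE value below is that of the libraries labelled SE. An exact two-sided permutation test of the summed level gave p = 0.1 for SE against PBS, the smallest that 3 against 3 libraries allow.

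Single genes, chosen after their values were seen except Cd74, showed the same pattern. Irf1, a transcription factor induced early by IFNγ, stood at 12.3, 12.6 and 11.96 CPM in PBS and 12.1, 12.9 and 11.5 CPM in SE, with a mean of 102.5 CPM in PE. The groups PBS and SE overlapped, and their log2 difference was -0.02 with a standard error of 0.07. H2-Ab1, the beta chain of an MHC class II molecule, was at 0.146 to 0.417 CPM in PBS and 0.15 to 0.42 CPM in SE, against 556 CPM in PE. Cd74, the class II invariant chain, had a lower level in SE, with 456, 447 and 382 CPM against 548, 557 and 688 CPM in PBS (log2 fold change -0.48, adjusted p = 0.0477), a change under the 1.5-fold threshold.

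**Figure D1:**
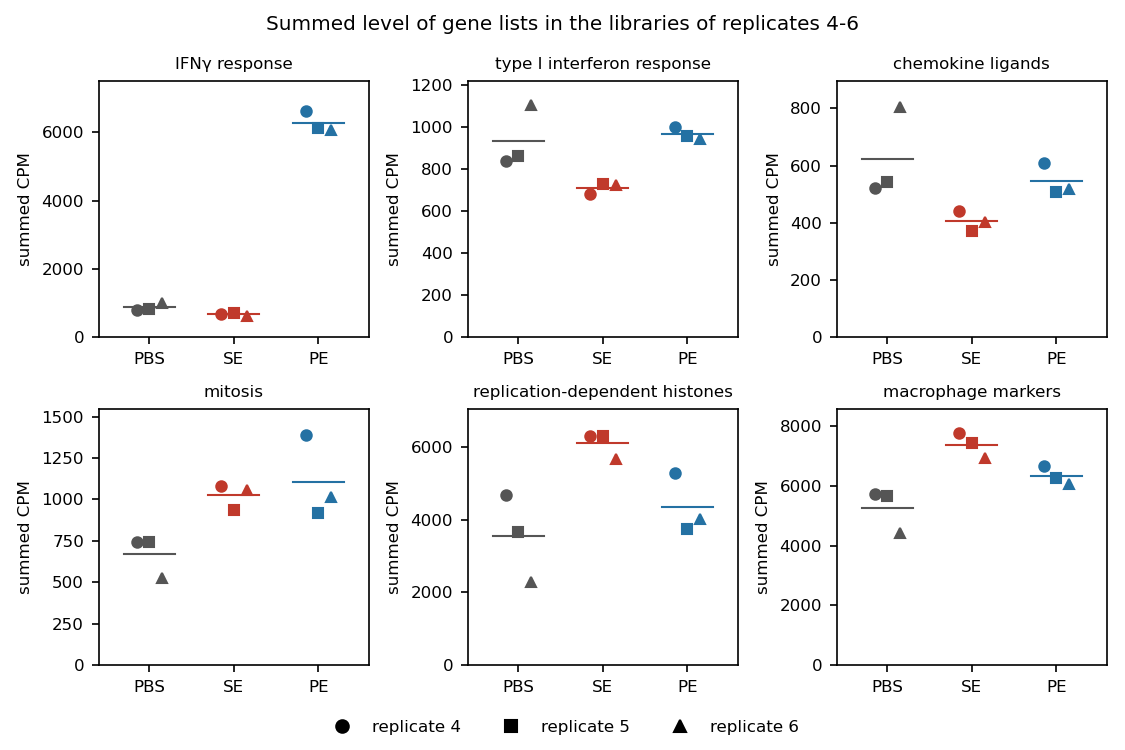
Summed CPM (y axis, from 0) of 6 gene lists in each library of PBS, SE and PE, replicates 4 to 6, where the marker shape gives the replicate and the bar the mean of 3. For the IFNγ response the SE libraries lie at 619 to 696 CPM beside PBS at 807 to 1004 CPM and far under PE, and PBS replicate 6 is the outermost PBS library in all 6 panels.

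The promoters of Irf1, an IFNγ target, and of Cxcl2, called lower in SE, are shown because IFNγ and NF-κB signalling act through such sequences. The bases before the RefSeq start of Irf1 (GRCm38.p6, chr11:53769764-53770013, plus strand, ending at the base before the annotated gene) and of Cxcl2 (chr5:90903649-90903870, plus strand, ending at the base before the annotated gene) read as follows, with matches to TTCNNNGAA, the letters of a gamma-activated sequence, and to GGGA and CC with any 4 letters between them, as in an NF-κB site, in capitals on either strand.
Irf1: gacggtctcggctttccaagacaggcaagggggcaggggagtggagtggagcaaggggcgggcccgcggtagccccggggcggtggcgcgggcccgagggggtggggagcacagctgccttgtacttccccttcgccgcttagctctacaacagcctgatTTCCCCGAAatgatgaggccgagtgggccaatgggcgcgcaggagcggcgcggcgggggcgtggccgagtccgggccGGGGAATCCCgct
Cxcl2: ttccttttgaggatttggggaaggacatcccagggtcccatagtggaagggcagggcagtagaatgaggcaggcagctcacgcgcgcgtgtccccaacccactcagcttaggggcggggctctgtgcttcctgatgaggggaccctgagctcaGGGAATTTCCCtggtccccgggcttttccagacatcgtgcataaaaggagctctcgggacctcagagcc
In Irf1, the capitals from -90 to -82 are the gamma-activated sequence letters and those from -13 to -4 the NF-κB letters. In Cxcl2, the NF-κB letters match on both strands in overlapping positions from -97 to -87, counted from the RefSeq start. The last 28 bases before that start lie within the annotated gene and are not shown. Over the 250 bases before the start, TTCNNNGAA occurred in 11 of the 24 IFNγ response genes with a listed promoter (45.8%), in 2 of 61 genes called lower in SE (3.28%) and in 7.18% of all 27025 genes. The NF-κB letters occurred in 15 of 61 genes called lower (24.6%), in 9 of 27 called higher (33.3%) and in 17.3% of all genes. Both strands were searched, and these are matches of letters, with no test made.

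Between SE and PBS, 112 of 15563 genes were called (0.72%), of which 37 were higher (0.238%) and 75 lower (0.482%) in SE. The lower genes included inflammatory mediators (Lcn2, Nos2, Ptgs2, Cxcl2, Ccl3, Ccl4 and Tnf), and the higher genes included C3, Fcgr3, Cxcr4 and Lyz2. The median log2 fold change of all genes tested was 0.00, and 35 of the 112 genes changed by more than 1 on the log2 scale. All 112 had groups that did not overlap, as did 23.6% of all genes. The smallest adjusted p was 0.00312, for C3, and 51 of the 112 had an adjusted p from 0.04 to 0.05. The count rested on single libraries: it was 318 without PBS replicate 4, 47 without PBS replicate 5, 74 without PBS replicate 6, and 36, 4 and 2 without SE replicates 4, 5 and 6. With only the 6 libraries in the fit 1 gene was called, Dner, and the 49 named called genes had adjusted p from 0.0374 to 0.0936. DESeq2 called 318, with 45.3% of them higher against 33% in the edgeR fit.

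**Figure D2:**
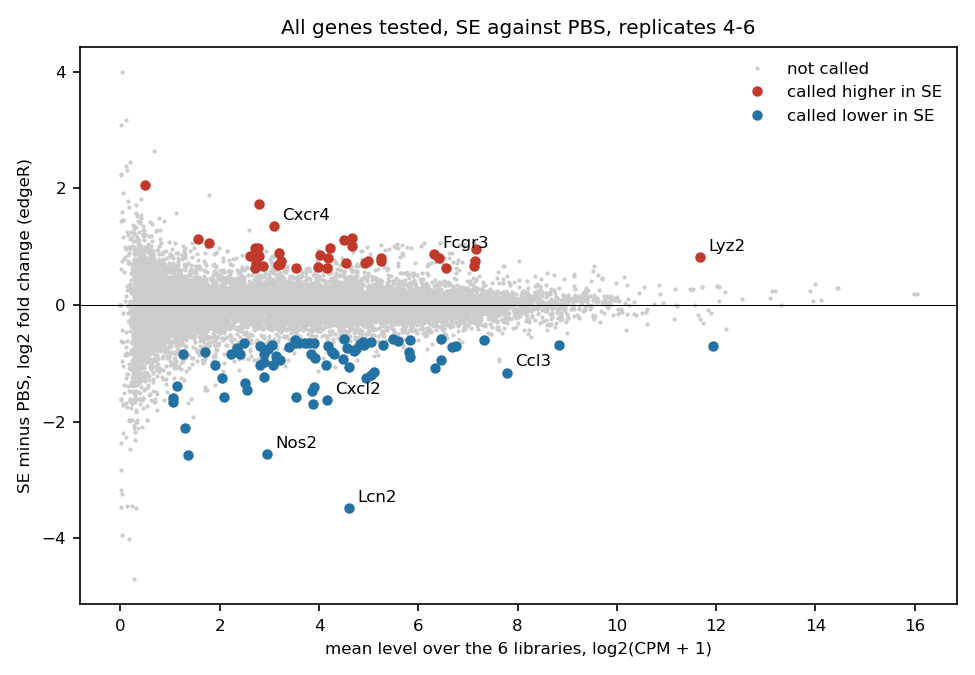
Log2 fold change of SE against PBS (y axis) over the mean level of the 6 libraries as log2(CPM + 1) (x axis), with 1 point for each of 15563 genes tested. The 37 genes called higher (red) and the 75 called lower (blue) lie at the edges of a cloud centred on 0, with Lcn2 lowest among the called genes at -3.48.

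The called genes with the largest falls at a mean of at least 5 CPM were Lcn2, Nos2, Ptgs2 and Cxcl2. Below that level Acsbg1, an acyl-CoA synthetase named after its value was seen, had a log2 fold change of -2.58. Lcn2, lipocalin 2, which binds bacterial siderophores and withholds iron, stood at 14.2, 13.2 and 102 CPM in PBS and at 2.98, 4.19 and 4.375 CPM in SE. PBS replicate 6 was far above the other PBS libraries, and every SE library was below every PBS library. The log2 fold change was -3.48 with a standard error of 0.71 (adjusted p = 0.0454), and without PBS replicate 6 it was -1.83 (adjusted p = 0.000141). Nos2, the inducible nitric oxide synthase and a classical M1 marker, was at 4.58, 7.16 and 22.8 CPM in PBS and 2.82, 1.80 and 1.41 CPM in SE. It fell by 2.55 on the log2 scale (standard error 0.55, adjusted p = 0.0481), or by 1.53 without PBS replicate 6. Ptgs2, the cyclooxygenase that starts prostaglandin synthesis, was at 11.3, 14.8 and 37.2 CPM in PBS and 6.64, 5.55 and 7.28 CPM in SE. Its log2 fold change was -1.69 (adjusted p = 0.0481), and -0.97 without PBS replicate 6.

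Acod1, which makes itaconate, was also lower, with 13.0, 7.55 and 8.81 CPM in SE against 15.0, 17.1 and 23.3 CPM in PBS (log2 fold change -0.92, adjusted p = 0.0477). It was not called without PBS replicate 6 (adjusted p = 0.0819). Gpr84, a receptor for medium-chain fatty acids, was at 35.04, 36.4 and 39.6 CPM in SE and 51.3, 51.0 and 68.4 CPM in PBS, a fall of 0.62 on the log2 scale (adjusted p = 0.0269), and was not called without PBS replicate 6 (-0.46). Of 14 tested effectors of the endotoxin response these 4 were lower (Lcn2, Nos2, Acod1 and Gpr84) and 0 were higher, or 2 lower without PBS replicate 6, while the median of the list was 0.00. Cd14, the endotoxin co-receptor in the same list, had a log2 fold change of 0.20, and Clec4e, a receptor for microbial glycolipids named after its value was seen, -0.01.

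Chemokines for neutrophils and monocytes were among the falls. Ccl3, a chemokine of the CC family, was at 230, 234 and 442 CPM in PBS and 143, 129 and 133 CPM in SE, and its neighbour Ccl4 at 37.2, 33.97 and 67.03 against 23.5, 21.2 and 17.9 CPM. Both had their highest level in PBS replicate 6 and no overlap between the groups. Ccl3 fell by 1.16 (adjusted p = 0.0246) and Ccl4 by 1.15 (adjusted p = 0.0331) on the log2 scale, and both were called without PBS replicate 6, with -0.78 each. Cxcl2, a neutrophil attractant, was at 15.4, 17.99 and 42.8 CPM in PBS and at 8.28, 7.98 and 8.42 CPM in SE (log2 fold change -1.63, adjusted p = 0.0381, and -1.01 without PBS replicate 6), with the 3 SE libraries close together. Cxcl16, which exists as a scavenger receptor and as a soluble ligand of CXCR6, went the other way, with 26.8, 22.9 and 20.3 CPM in SE against 13.9, 13.2 and 8.23 CPM in PBS (log2 fold change 0.99, adjusted p = 0.0477). It was not called without PBS replicate 6 (0.78, adjusted p = 0.0663). Of 15 chemokine ligands tested, 3 were lower and 1 higher, with a median log2 fold change of -0.65. Only 10 of the 15 passed the filter with the 6 libraries, and the others passed only through PE. Without PBS replicate 6, 3 were lower and 0 higher, with a median of -0.37. The receptor Ccr1, named after its value was seen, was also called lower (log2 fold change -1.03).

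Of 9 M1 markers, 6 were tested and 2 were called lower, Nos2 and Tnf. These are the markers followed by PCR in primary macrophages of transgenic mice. Tnf was at 44.2, 42.2 and 54.1 CPM in PBS and 32.7, 26.5 and 28.4 CPM in SE, a fall of 0.68 on the log2 scale with a standard error of 0.10 (adjusted p = 0.0193). Without PBS replicate 6 the log2 fold change was -0.57, under the fold threshold. The monocyte attractant Ccl2 had 13.97, 14.4 and 23.1 CPM in PBS and 11.5, 10.4 and 11.1 CPM in SE (adjusted p = 0.074). Il6, Il23a and Cxcl10 had log2 fold changes of -1.60, -1.45 and -1.70 with adjusted p from 0.0774 to 0.123. Their highest levels in PBS and SE were 0.875, 5.69 and 0.771 CPM. In SE replicate 4, Il6 and Cxcl10 were at 0.042 and 0.084 CPM, under the level of 3 counts (0.116 CPM). Cxcl10 passed the filter only through PE. All 6 tested markers, Il6 and Cxcl10 at these low levels included, had every SE library below every PBS library, against 11.9% of all genes. The median of the list was -1.53, and -1.01 without PBS replicate 6.

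Several surface proteins, transporters and regulators fell as well. Dner, a ligand of Notch receptors, was at 12.9, 15.35 and 19.65 CPM in PBS and 5.42, 4.67 and 5.84 CPM in SE. This was the only gene called with just the 6 libraries, with a log2 fold change of -1.58 and a standard error of 0.16 (adjusted p = 0.00366) in the 9-library fit and -1.40 without PBS replicate 6. Procr, the protein C receptor, had 13.1, 14.7 and 31.6 CPM in PBS and 6.14, 7.89 and 7.34 CPM in SE (log2 fold change -1.48, adjusted p = 0.0382). Tarm1, an activating receptor of myeloid cells, was at 13.7, 15.1 and 32.1 CPM in PBS and 6.93, 8.715 and 7.55 CPM in SE (log2 fold change -1.40). Both were called without PBS replicate 6, with -0.96 and -0.90.

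Slc43a3, a purine base transporter, was at 36.5, 37.5 and 60.3 CPM in PBS and 19.6, 18.3 and 20.2 CPM in SE (log2 fold change -1.21, adjusted p = 0.0123). Emp2, a tetraspan membrane protein, was at 33.4, 35.5 and 56.8 CPM in PBS and 16.7, 19.1 and 17.0 CPM in SE (log2 fold change -1.25). Tcam1, an adhesion molecule, fell by 1.24 and Tfcp2l1, a transcription factor, by 1.07 on the log2 scale, and all 4 were called without PBS replicate 6. Car6, a secreted carbonic anhydrase, was at 83.5, 92.2 and 148 CPM in PBS and 49.3, 54.4 and 49.9 CPM in SE (log2 fold change -1.08, adjusted p = 0.0481), and was not called without PBS replicate 6 (adjusted p = 0.0865).

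**Figure D3:**
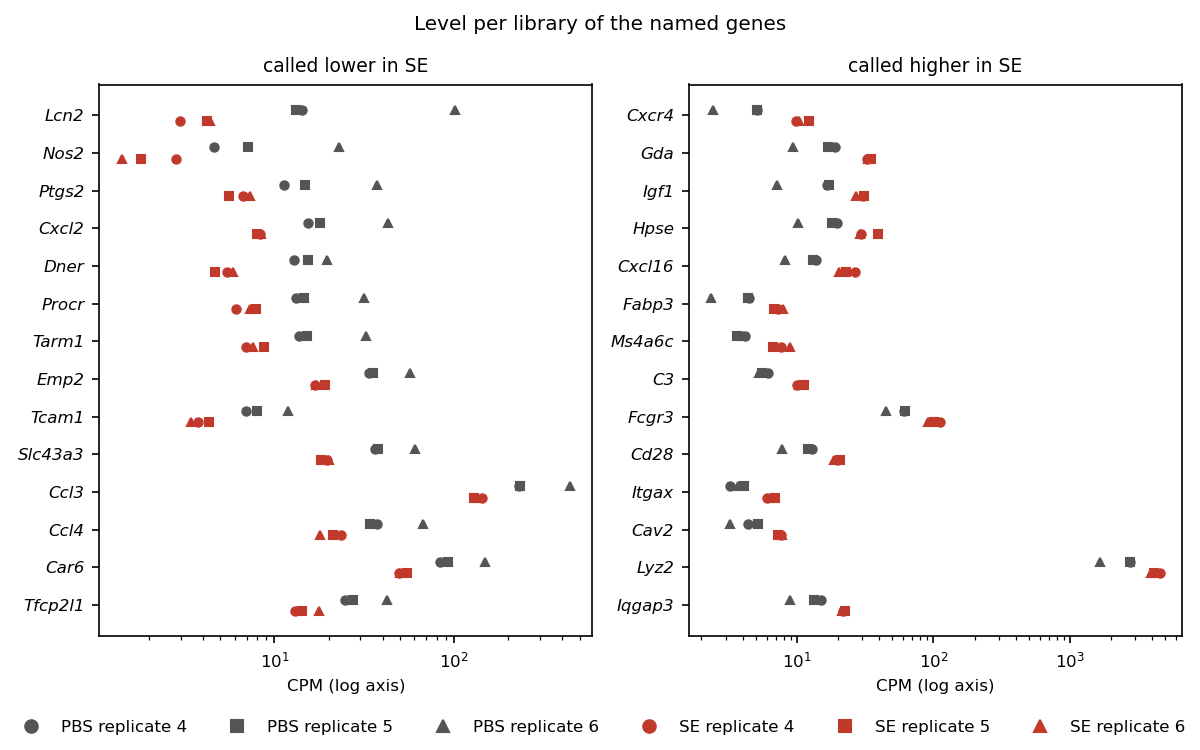
CPM on a log axis of the 14 named genes with the largest called falls (left) and the 14 with the largest called rises (right), with 1 marker per library, PBS in grey and SE in red and the marker shape giving the replicate. No gene shown has overlapping groups, and the PBS replicate 6 triangle lies farthest from SE for all genes called lower here and for most of those called higher.

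The called genes with the largest rises at a mean of at least 5 CPM were Cxcr4, Gda and Igf1. Below that level, or with only a clone name, 2 genes rose more, among them Maf, a transcription factor named after its value was seen (log2 fold change 2.06, not called without PBS replicate 6). Cxcr4, the receptor for CXCL12, was at 5.10, 5.14 and 2.44 CPM in PBS and 9.92, 12.2 and 10.3 CPM in SE, with a log2 fold change of 1.36 and a standard error of 0.25 (adjusted p = 0.0304). C3, the central complement component, was at 6.19, 5.56 and 5.29 CPM in PBS and 10.04, 11.3 and 10.4 CPM in SE (log2 fold change 0.89, standard error 0.08, adjusted p = 0.00312). Its replicates were close in both groups and the value without PBS replicate 6 was 0.83 (adjusted p = 0.00147). In PE the mean level of C3 was 130 CPM. Fcgr3, a low-affinity IgG receptor, was at 60.7, 61.8 and 44.7 CPM in PBS and 112, 102 and 91.5 CPM in SE (log2 fold change 0.87, adjusted p = 0.0167). Itgax, the integrin CD11c that binds complement, was at 3.215, 4.06 and 3.71 CPM in PBS and 6.01, 6.96 and 6.65 CPM in SE (log2 fold change 0.85, adjusted p = 0.0246). All 4 were called without PBS replicate 6.

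Of 16 complement genes and Fc receptors tested, 12 of which passed the filter without PE, 3 were higher and 0 lower, with a median log2 fold change of 0.08. Of members named after their values were seen, Cfp, properdin, had 106 to 113 CPM in SE against 84.2 to 86.7 CPM in PBS, a tight difference (log2 fold change 0.35, adjusted p = 0.0246) under the fold threshold. Fcgr1, the high-affinity IgG receptor and an IFNγ target, had 60.6, 58.1 and 60.0 CPM in SE and 73.0, 84.9 and 125 CPM in PBS (log2 fold change -0.66, adjusted p = 0.0552). C1qa and C1qc had no count in any of the 6 libraries, and had mean levels of 10.2 and 44.1 CPM in PE.

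Lyz2, macrophage lysozyme, was at 2732, 2744 and 1646 CPM in PBS and 4530, 4119 and 3919 CPM in SE (log2 fold change 0.82, adjusted p = 0.0423). Csf1r, the receptor for the macrophage growth factor, named after its value was seen like the lineage genes that follow, had 355, 360 and 221 CPM in PBS and 495, 433 and 440 CPM in SE, with an adjusted p of 0.0901. For both genes PBS replicate 6 was the lowest library. Spi1, Itgam, Ptprc and Cd68, which also define the lineage, had log2 fold changes from -0.04 to 0.10.

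Igf1, a growth factor made by macrophages, was at 16.5, 17.3 and 7.19 CPM in PBS and 30.4, 30.9 and 27.2 CPM in SE (log2 fold change 1.12, adjusted p = 0.0481). Gda, guanine deaminase, rose by 1.15 on the log2 scale, from 19.1, 16.9 and 9.44 CPM in PBS to 32.9, 34.7 and 33.0 CPM in SE. Hpse, the heparan sulfate-cleaving heparanase, rose by 1.02 and Fabp3, a fatty acid carrier, by 0.97. These 4 were called without PBS replicate 6. Ms4a6c, a four-span membrane protein of myeloid cells, was at 4.17, 3.61 and 4.04 CPM in PBS and 7.61, 6.72 and 8.87 CPM in SE (log2 fold change 0.97, adjusted p = 0.0123, and 0.99 without PBS replicate 6). Cd28, Cav2 and Iqgap3, a costimulatory receptor, a caveolin and a scaffold protein of the cell cortex, had log2 fold changes of 0.85, 0.84 and 0.81 and were not called without PBS replicate 6.

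Interferon-stimulated genes of the type I response lay slightly lower in SE. Of 27 tested, 1 was called lower, Irf7, while 26 had a log2 fold change below 0 and 22 an unadjusted p under 0.05. Irf7, the factor that amplifies type I interferon production, was at 57.9, 63.2 and 88.6 CPM in PBS and 38.9, 40.6 and 41.0 CPM in SE (log2 fold change -0.80, adjusted p = 0.033). The median of the list was -0.46, against 0.00 for all genes, and -0.27 without PBS replicate 6. Named after its value was seen, Oas3, an antiviral oligoadenylate synthetase, had 99.7, 95.9 and 106 CPM in PBS and 76.1, 83.6 and 75.6 CPM in SE (log2 fold change -0.36, adjusted p = 0.0461), a difference under the fold threshold.

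Of 25 NF-κB subunits and targets, 2 were lower, Ptgs2 and Tnfaip3, and 0 were higher, with a median of -0.16. Tnfaip3, the A20 enzyme that ends NF-κB signalling, was at 14.4, 15.0 and 18.1 CPM in PBS and 11.3, 9.30 and 9.68 CPM in SE (log2 fold change -0.65, adjusted p = 0.0289). It was not called without PBS replicate 6 (-0.54), which left 1 call in the list. The subunits Rela and Rel, named after their values were seen, had log2 fold changes of -0.08 and 0.10, and the inhibitor Nfkbia -0.13. Cd40, named likewise, a receptor induced on activated macrophages, had 14, 16.4 and 31.9 CPM in PBS and 10.4, 10.6 and 11.96 CPM in SE (adjusted p = 0.0848).

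Targets of growth factor and MAP kinase signalling followed the same direction in part. Among 26 immediate early and feedback genes, 2 were lower, Etv5 and Ier3, and 22 had a log2 fold change below 0. Etv5, an ETS factor downstream of ERK, was at 24.0, 26.5 and 33.6 CPM in PBS and 15.7, 14.9 and 13.6 CPM in SE (log2 fold change -0.93, adjusted p = 0.0123), and it was called without PBS replicate 6. Myc, named after its value was seen, had 2.60, 2.64 and 6.50 CPM in PBS and 1.60, 1.85 and 1.20 CPM in SE (adjusted p = 0.0739). Fosl1, an AP-1 subunit named after its value was seen, was called lower (log2 fold change -1.25). Neither Ier3 (-0.54) nor Fosl1 (-0.99, adjusted p = 0.103) was called without PBS replicate 6.

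Osteoclast genes, which RAW264.7 cells can induce when they differentiate toward bone-resorbing cells, were divided. Of 20 tested, 5 were lower and 0 higher: Oscar, Mmp9, Acp5, Ctsk and Dcstamp. Without PBS replicate 6 the call of Oscar was lost (adjusted p = 0.1003) and 4 remained. Ctsk, the collagen-degrading cathepsin K, was at 43.6, 43.1 and 30.0 CPM in PBS and 27.0, 25.1 and 22.8 CPM in SE (log2 fold change -0.64, adjusted p = 0.0454). Acp5, the tartrate-resistant acid phosphatase, was at 18.1, 19.8 and 13.4 CPM in PBS and 9.96, 8.57 and 9.86 CPM in SE (log2 fold change -0.85, adjusted p = 0.0246). For these 2 genes PBS replicate 6 was the PBS library nearest to SE, and without it the differences were larger, at -0.80 and -0.997. Mmp9, a gelatinase, was at 5.62, 6.60 and 9.05 CPM in PBS and 3.36, 2.24 and 2.16 CPM in SE (log2 fold change -1.46, adjusted p = 0.0167). Nfatc1, the master regulator of the lineage, named after its value was seen, had a log2 fold change of 0.06. In PE, Ctsk and Acp5 had mean levels of 5.24 and 3.21 CPM, below SE.

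**Figure D4:**
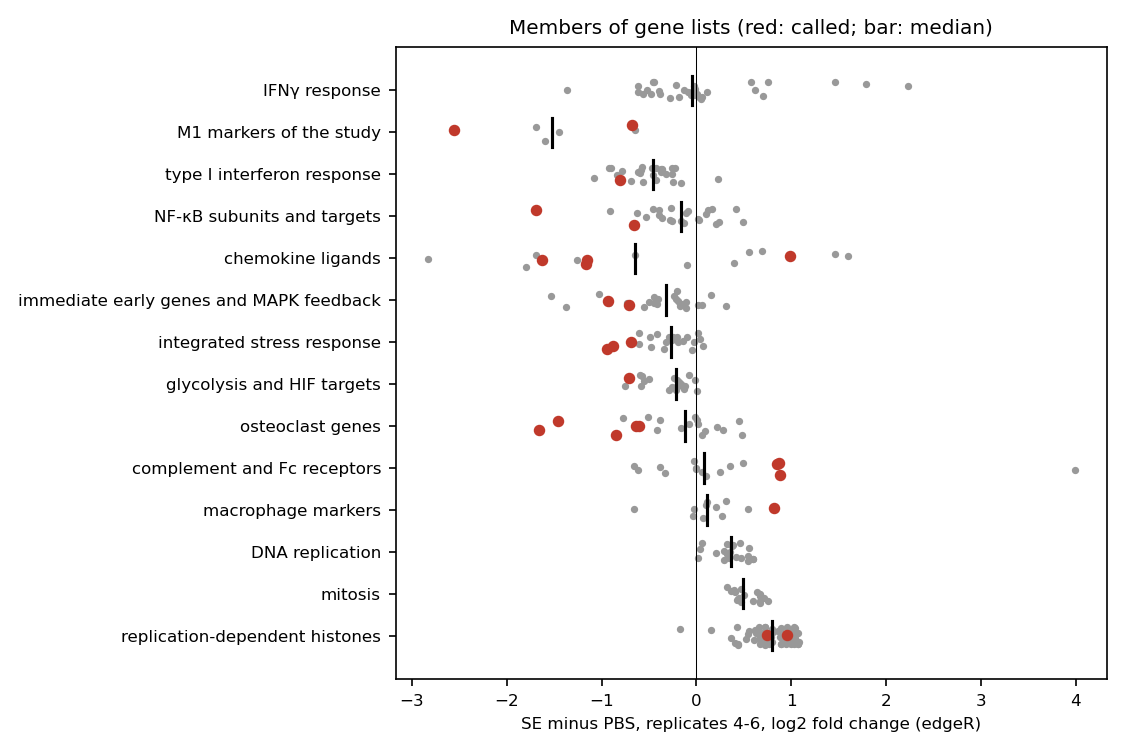
Log2 fold change of SE against PBS (x axis) for each tested member of 14 gene lists, with called members in red and the list median as a bar. The IFNγ response is centred near 0, the M1 markers, type I interferon genes and chemokines lie mostly below 0, and the mitosis and histone genes lie almost all above 0 with few or no calls.

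Metabolic and stress lists held 1 to 3 calls each, or none. Of 22 genes of the integrated stress response, 3 were lower: Stc2, Pycr1 and Aldh1l2, with log2 fold changes of -0.94, -0.87 and -0.69. Without PBS replicate 6 Aldh1l2 was not called (-0.46), and the median of the list was -0.11 in place of -0.27. Pycr1, which makes proline, was at 8.88, 9.725 and 11.8 CPM in PBS and 5.42, 5.50 and 5.66 CPM in SE (adjusted p = 0.0246). Atf4, the factor that drives this response, named after its value was seen, had a log2 fold change of -0.14. Slc2a1, the glucose transporter GLUT1, was the only called gene of 22 in glycolysis and hypoxia, at 103, 137 and 161 CPM in PBS and 101, 72.8 and 72.5 CPM in SE (log2 fold change -0.71, adjusted p = 0.0484), and it was not called without PBS replicate 6. Among 12 genes of the LXR pathway, which exports cholesterol, 2 were higher. Abca1, the cholesterol exporter, was at 22.5, 25.7 and 20.7 CPM in PBS and 44.5, 34.6 and 37.5 CPM in SE (log2 fold change 0.76, adjusted p = 0.0246). Smpdl3a, a phosphodiesterase, was at 81.3, 75.4 and 61.7 CPM in PBS and 104, 126 and 108 CPM in SE (log2 fold change 0.63, adjusted p = 0.0304), and was not called without PBS replicate 6 (0.52). Sesn1, a stress-induced sestrin, was the only call among 15 p53 targets (log2 fold change 0.65, adjusted p = 0.0434), and was not called without PBS replicate 6 (0.50).

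Of 9 tested genes of the IL-4 response, the signature of alternatively activated macrophages, 1 was higher, Mrc1, the mannose receptor, at 1.00, 1.49 and 1.21 CPM in PBS and 2.44, 2.58 and 2.94 CPM in SE (log2 fold change 1.14, adjusted p = 0.0376, and 0.0635 without PBS replicate 6). The median of the list was 0.05. Mgl2, the only one of 4 M2 markers with enough counts to be tested, had log2 fold change -0.62 (adjusted p = 0.488).

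The listed mitosis genes had higher levels in SE than in PBS, without a call. Of 20, 0 were called (4 without PBS replicate 4), while all 20 had a log2 fold change above 0, all 20 an unadjusted p under 0.05 and all 20 every SE library above every PBS library, against 11.7% of all genes. Mki67, the proliferation antigen, had 223, 224 and 138 CPM in PBS and 347, 305.5 and 334 CPM in SE (log2 fold change 0.76, adjusted p = 0.0572). Ccna2, cyclin A, named after its value was seen, had 32.1, 33.3 and 20.2 CPM in PBS and 52.2, 43.3 and 45.0 CPM in SE (adjusted p = 0.0876). PBS replicate 6 was the lowest library for both, and the median of the list was 0.49 with it and 0.41 without it. In PE, 15 of the 20 listed genes were called higher than in PBS (6.16% of all genes), with a median of 0.78. Of the 20, 4 were called lower in SE than in PE (7.9% of all genes). Outside the list Knstrn, Psrc1 and Haus8, spindle genes named after their values were seen, were called higher, with log2 fold changes of 0.71, 0.63 and 0.63, and of these Knstrn was called without PBS replicate 6. DNA replication genes had a median of 0.36 and 20 of 20 above 0, with 0 called, and 0.17 and 18 of 20 without PBS replicate 6.

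Replication-dependent histone genes had the same direction. Of 66 tested, 65 had a log2 fold change above 0, 62 had groups that did not overlap with SE higher, and 2 were called, Hist1h3f and Hist1h4d. Such genes have near-identical copies, so the counts of single members are uncertain. Their share of all counts was 0.468, 0.37 and 0.236% in PBS and 0.582, 0.629 and 0.558% in SE, with an exact two-sided permutation p of 0.1, the smallest that 3 against 3 libraries allow. The median log2 fold change was 0.79, and 0.56 with 14 called without PBS replicate 6. Without PBS replicate 4 it was 1.03 with 53 called, and without PBS replicate 5 0.85 with 0 called. Hist1h4d was not called without PBS replicate 6. Mitochondrially encoded genes took 4.86% ± 0.445 of counts in PBS and 5.55% ± 0.503 in SE (SD, n = 3, exact permutation p = 0.3). Nuclear genes of oxidative phosphorylation had a median of 0.14 with 71 of 76 above 0, and ribosomal proteins 0.09, with 0 called in each of these 3 lists. Small noncoding RNAs took 18.7% ± 0.917 and 20.7% ± 2.37 (exact permutation p = 0.3). Leaving out the histone, small noncoding and mitochondrial genes gave 127 called genes, 110 of them among the 112.

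No member was called in the lists for cholesterol synthesis (21 tested, median -0.01), endoplasmic reticulum chaperones (14, -0.22), heat shock (9, -0.02), NRF2 targets (16, -0.17), lysosome (25, 0.01), ribosome biogenesis (16, 0.01), iron handling (11, -0.01), Toll-like receptors (18, 0.12), costimulatory ligands (14, -0.15), actin cytoskeleton (12, 0.05) and nuclear long noncoding RNAs (8, 0.05).

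Leaving out PBS replicate 6 made most of the called differences smaller. Without it 74 genes were called, 35 higher and 39 lower, and 55 of these were among the 112. All 112 kept their direction, which was all but fixed, as none had overlapping groups. All 112 had an unadjusted p under 0.05, but the SE libraries and PBS replicates 4 and 5 had also served to choose them. The size of the log2 fold change was smaller in 103 of 112, with a median of 78.9% of the value with all libraries, and 77 stayed over 1.5-fold. PBS replicate 6 had the highest level of the 6 libraries in 66 of the 75 lower genes and the lowest in 33 of the 37 higher ones. Lcn2, Nos2, Ptgs2, Cxcl2, Ccl3 and Ccl4 were all called lower without it, with PBS replicates 4 and 5 above every SE library. Irf7 (-0.59) and C3, Fcgr3 and Cxcr4 (0.83, 0.73 and 1.07) were called too.

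**Figure D5:**
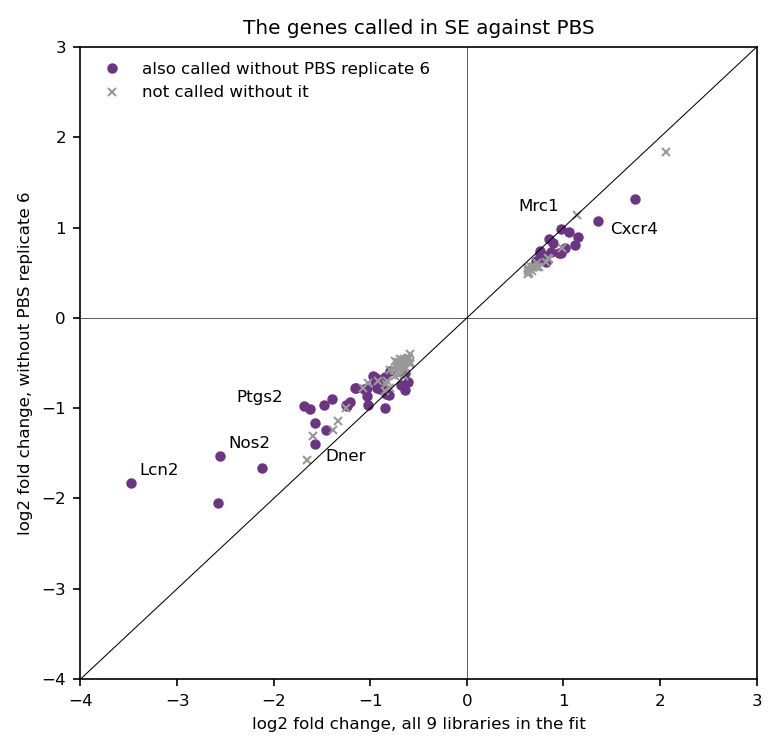
Log2 fold change of the 112 called genes with all 9 libraries in the fit (x axis) and without PBS replicate 6 (y axis), with the line of equal values. Circles mark the 55 genes called in both and crosses the 57 called only with it. No gene changes sign, which the lack of overlap between the groups all but fixed, and Lcn2 moves from -3.48 to -1.83.

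Against PE, where IFNγ target genes were high, 2150 genes were called in SE (13.8%), 920 higher and 1230 lower. Of the 75 genes lower in SE than in PBS, 46 were also called lower in SE than in PE (7.9% of all genes), and of the 37 higher ones, 10 were also called higher than in PE (5.91% of all genes). Of the genes called between SE and PBS in either direction, 29 were called higher in PE than in PBS (6.16% of all genes). Another 20 were called lower in PE than in PBS (4.66% of all genes). Of the 14 named genes with the largest called rises, Hpse, Cxcl16, Ms4a6c, C3, Itgax and Iqgap3 were called higher in PE than in PBS. Cxcr4, Gda, Igf1, Fabp3, Fcgr3, Cd28, Cav2 and Lyz2 were not called in that comparison. Nos2 was at 69.3 CPM in PE and 5.14 lower in SE than in PE on the log2 scale, and Ptgs2 at 126 CPM with a difference of -4.26. Lcn2 had a mean of 32.1 CPM in PE, with a log2 difference of -3.06 between SE and PE. Cxcr4 was called higher in SE than in PE (log2 fold change 1.30) and had 4.37 CPM in PE, near its PBS level. The comparisons of SE with PBS and with PE use the same SE libraries. Those of SE and of PE with PBS use the same PBS libraries.

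The earlier libraries under the same labels, replicates 1 to 3, gave a different SE minus PBS contrast. There 3573 of 16845 genes were called (21.2%). The contrast itself differed between the replicate sets in 3845 genes (22.8%). It differed in 92 of the 112 called here, but these were chosen for this contrast in replicates 4 to 6, so an excess was built in. It also differed in 30 of the 32 IFNγ response genes, 12 of which had passed the filter of replicates 4 to 6 only through PE. Of the 75 genes lower in SE in replicates 4 to 6, 47 were called higher in replicates 1 to 3 and 11 lower, where 11% of all genes were called higher and 10.2% lower. Of the 37 higher genes, 9 were called higher and 10 lower there. Lcn2 went from a mean of 9.75 CPM in PBS to 121 CPM in SE in replicates 1 to 3, and Nos2 from 14.7 to 278 CPM. Cxcr4, Ms4a6c, Cxcl16, C3 and Itgax were called higher in both sets, and Car6, Mmp9, Acp5, Ctsk and Aldh1l2 lower in both. The sets differ in their share of small noncoding RNA, given above, so library content and replicate set cannot be told apart.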

How the data were processed

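Per the methods, RNA was sequenced from RAW264.7 cultures after TruSeq mRNA preparation of total RNA, with no difference stated between replicate sets. Small noncoding RNAs took 17.7 to 23.2% of counts in SE and PBS replicates 4 to 6. Their share was 0.0612 to 0.0959% in SE and PBS replicates 1 to 3. Whether both sets were prepared alike was not tested. Per the labels the authors counted reads per gene with featureCounts on GRCm38.p5 and worked with DESeq2 1.16.1 in R 3.4.1. The deposited table holds raw counts, not normalized, for 49568 gene names, of which 2 are repeated, and 18 libraries, with 0 columns unused. The table of the IL-4 arm was not used here.

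From these counts, edgeR 4.0.16 in R 4.3.3 (quasi-likelihood test, TMM, filterByExpr) was fitted to the 9 libraries of replicates 4 to 6, and to all 18 for the difference between replicate sets. Genes were called at a Benjamini-Hochberg adjusted p under 0.05 and a fold change over 1.5. CPM are counts-per-million of a library's whole total. The limit for a count of 0 is 3 counts and covers counting error only. Single values were compared by exact permutation tests. The scripts were tested on simulated data.

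Named genes were up to 14 called rises and 14 called falls with a mean of at least 5 CPM and groups that did not overlap, up to 4 called members per list or otherwise 2 with the highest CPM, and the study's M1 markers. Others are marked in the text. The libraries and the 42 lists were chosen with earlier results of these data known. Replicates of a group differed beyond sampling noise. Deviations from the group mean in same-numbered SE and PBS libraries had r = 0.0283, -0.145 and 0.177. Differently numbered ones ran from -0.212 to 0.276. With 3 libraries a group these values cannot show whether the libraries were paired. The main fit used no replicate block, as the study's methods name none. Alternatives were RLE size factors, DESeq2 1.42.0, other filters, thresholds and samples, the block and leaving out each library. Sequences come from RefSeq promoters (GRCm38.p6), and 61 of 75 lower, 27 of 37 higher and 24 of 32 IFNγ response genes matched.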

Additional observations from a re-analysis of the deposited data

Results flagged for a closer look

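The SE minus PBS difference was not the same in replicates 4 to 6 as in replicates 1 to 3. By edgeR's test of the difference itself, 3845 of 16845 genes differed between the sets (22.8%), and 30 of the 32 IFNγ response genes had a lower SE minus PBS difference in replicates 4 to 6. Of these 32, 12 had passed the filter of replicates 4 to 6 only through PE, where they were high. Of the 49 named called genes, 39 differed, 25 with a lower and 14 with a higher difference in replicates 4 to 6, and 24 were called in opposite directions in the sets. These genes were chosen for their difference in replicates 4 to 6, so an excess over 22.8% was built in.

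The values below are log2 differences, replicates 4 to 6 minus replicates 1 to 3. Among inflammatory and other genes with lower values, they were -7.12 for Lcn2, -6.80 for Nos2, -6.78 for Ptgs2, -5.08 for Procr, -4.76 for Acod1, -4.24 for Cxcl2 and -3.19 for Tarm1. Further lower values were -3.12 for Ccl3, -2.97 for Slc43a3, -2.93 for Irf7, -2.85 for Ccl4, -2.58 for Emp2, -2.46 for C3 and -2.37 for Tcam1. Smaller ones were -2.18 for Dner, -1.92 for Tnf, -1.74 for Tfcp2l1, -1.59 for Etv5, -1.53 for Slc2a1, -1.44 for Stc2 and -1.12 for Cxcl16. The remaining lower values were -1.06 for Tnfaip3, -0.98 for Pycr1, -0.95 for Itgax and -0.76 for Gpr84. Higher values were 0.89 for Igf1, 1.01 for Acp5, 1.03 for Hpse, 1.21 for Iqgap3, 1.24 for Fabp3, 1.36 for Lyz2 and 1.53 for Gda. The others were 1.54 for Fcgr3, 1.75 for Cav2, 1.79 for Abca1, 2.03 for Ctsk, 2.05 for Cd28, 2.79 for Sesn1 and 3.30 for Mrc1.

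Histone genes took 0.236 to 0.629% of counts in the SE and PBS libraries of replicates 4 to 6 and 0.00768 to 0.0187% in those of replicates 1 to 3. The part of library content in these differences was not tested. Groups of 3 libraries were too small for the test for a single far sample.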

How the results depend on the processing

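The count of 112 genes between SE and PBS depended on the setting. DESeq2 gave 318, no low count filter 519, all 18 libraries 343 and only the 6 libraries 1. Adjusted p alone gave 188 and a fold change over 2 gave 35. Leaving out 1 library gave 2 to 318. RLE size factors gave 112, at least 10 counts in every library 111, and leaving out histone, small noncoding and mitochondrial genes 127. The share of higher calls was 33% in the edgeR fit, 45.3% with DESeq2, 44.1% with no filter, 42.9% with all 18 libraries and 22.9% at a fold over 2. Without PBS replicates 4 and 6 it was 44% and 47.3%. For SE against PE (2150 genes), adjusted p alone gave 4828, a fold over 2 gave 1071, and leaving out 1 library 1902 to 2073. For the difference between replicate sets (3845 genes) these were 6017, 2100 and 3391 to 3934. The cause was not tested.

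The replicate block gave 275 genes between SE and PBS, 111 of them shared with the 112 and 52.4% of them higher, 2139 between SE and PE and 3815 between replicate sets. The same-numbered libraries share a number and a run of the column labels. The labels do not state a pairing, so whether the design is paired is not known.

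None of the called named genes changed direction under any of these settings, which groups without overlap made all but certain. Of 49, RLE size factors and the block kept 49, and leaving out SE replicates 5 and 6 kept 3 and 2. With 3 libraries a group, and PBS replicate 6 far from the others on the first principal component, many calls lay near the threshold.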

Other observations

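In glycolysis and hypoxia genes, the SE libraries were unlike each other. Ldha, the lactate dehydrogenase named here after its values were seen, was at 939, 531 and 580 CPM in SE replicates 4, 5 and 6 and at 743, 870.5 and 706 CPM in PBS. Bnip3, a mitophagy receptor named likewise, was at 78.1, 21.96 and 21 CPM in SE and 42.4, 87.5 and 51.4 CPM in PBS. SE replicate 4 was the highest SE library for both genes.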
